A study of Mus musculus with 4 samples.

Results

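The 10 genes described here encode splicing regulators whose use shifts between neural progenitors and neurons: the polypyrimidine tract binding proteins Ptbp1, Ptbp2 and Ptbp3, the Rbfox proteins Rbfox2 and Rbfox3, Nova1 and Nova2, the microexon activator Srrm4, and the muscleblind proteins Mbnl1 and Mbnl2. They were taken by symbol from a list of names that was chosen with earlier results of these data known. All 10 were found once among the 55414 gene identifiers in the count files. The data came from primary mouse neural stem cells, taken from E14.5 cortex, grown as floating spheres and then as a monolayer with EGF at 20 ng per ml and basic FGF at 10 ng per ml. The wild type group and the Mettl4 knockout group had 2 RNA sequencing libraries each, and the labels give neither the strain nor the part of Mettl4 that was removed, nor whether replicates were separate embryos or cultures. P-values therefore rest on the variation among these libraries alone, and that variation may be technical.

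Splicing regulators of this kind bind short motifs in and around alternative exons and set whether those exons are kept. In progenitors Ptbp1 is known to repress neuronal exons, among them an exon of Ptbp2 whose loss shifts the reading frame and sends the transcript to nonsense-mediated decay. When Ptbp1 falls during neuronal differentiation, Ptbp2 protein rises, and Rbfox3 (the antigen of the neuronal marker NeuN), the Nova proteins and Srrm4 then act in maturing neurons. Gene counts measure the RNA of a gene over all its transcripts, and splicing itself was not analysed here.

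The Ptbp2 exon of this switch is shown beside an exon of the same length from each of Ptbp1 and Ptbp3. Gene counts cannot tell transcripts with such an exon from transcripts without it. The sequences come from GENCODE M21 transcripts on the GRCm38 build, with the exon in capitals and 10 flanking coding bases on each side in lower case. The Ptbp1 exon (chr10:79862014-79862047, plus strand) is exon 9 of 13 in the transcript used. The Ptbp2 exon (chr3:119724612-119724645, minus strand) is exon 10 of 14, and the Ptbp3 exon (chr4:59485339-59485372, minus strand) is exon 11 of 15.
Ptbp1: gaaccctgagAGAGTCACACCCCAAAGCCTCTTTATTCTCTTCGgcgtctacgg
Ptbp2: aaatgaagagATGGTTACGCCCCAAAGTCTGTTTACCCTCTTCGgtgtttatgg
Ptbp3: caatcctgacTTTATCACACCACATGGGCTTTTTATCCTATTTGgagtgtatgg
Each exon has 34 bases, which is not a multiple of 3, and each lies inside the coding sequence. The annotation holds 2 Ptbp1 and 2 Ptbp2 transcripts that join the neighbouring exons and leave this one out, and all of these are marked as targets of nonsense-mediated decay. For Ptbp3 it holds 0 such transcripts. Between Ptbp1 and Ptbp2 26 of 34 bases match, against 22 of 34 between Ptbp1 and Ptbp3.

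The muscleblind genes share an exon of 54 bases that the proteins themselves regulate and that is known to affect where the protein sits in the cell. It lies at chr3:60614683-60614736 (plus strand) in Mbnl1 and at chr14:120395712-120395765 (plus strand) in Mbnl2.
Mbnl1: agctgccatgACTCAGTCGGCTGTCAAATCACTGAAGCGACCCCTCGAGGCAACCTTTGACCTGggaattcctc
Mbnl2: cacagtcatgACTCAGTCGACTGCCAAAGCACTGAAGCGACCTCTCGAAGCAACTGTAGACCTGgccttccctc
Of its 54 bases 46 match, and the length is a multiple of 3, so leaving it out keeps the reading frame. Of 25 annotated Mbnl1 transcripts, 5 hold the exon and 5, a retained-intron transcript among them, join its neighbouring exons and leave it out. For Mbnl2 3 hold it and 3 leave it out in this way, of 10 annotated transcripts. Over whole transcripts, the paralogs of these families shared 0 runs of 50 bases, and the longest exact run in common was 26 bases, between Mbnl1 and Mbnl2. Reads longer than such a run can be told apart between paralogs, but the sources used here do not give the read length.

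Library totals ran from 12812064 to 19310668 counts. Knockout was compared with wild type for the 19912 genes above a low-count filter, by edgeR's quasi-likelihood test with Benjamini-Hochberg adjustment over all of them. Mettl4, the targeted gene, read 63.8 and 66.6 CPM (counts scaled to library size) in the wild type libraries and 15.6 and 17.6 CPM in the knockout libraries (log2 fold change -1.97, SE 0.17, adjusted p = 0.0051). It was the 1 gene called, which is 0.00502% of those tested. With 1 library left out at a time, the number called was 31 or 17 (wild type replicate 1 or 2 removed) and 47 or 1 (knockout replicate 1 or 2 removed), with 0 of the regulators among them. The 12 neural progenitor markers summed to 5660 and 6080 CPM in the wild type and 5546 and 6495 CPM in the knockout. Most of this was Fabp7 (1635 to 2985 CPM), Vim (1662 to 1950 CPM) and Slc1a3 (873 to 1206 CPM). Nes read 258 CPM or more and Sox2 174 CPM or more in each library. Lower in the list, Pax6 read 38.9 to 45.2 CPM, Sox1 30.5 to 41.3, Hes1 16.4 to 21.9 and Prom1 6.86 to 7.55 CPM. The 16 neuron markers summed to 1128 and 1414 CPM in the wild type and 1238 and 1446 CPM in the knockout, but most of this was Map2, which read 1000 to 1335 CPM. Gap43 read 61.1 and 72.8 CPM in the wild type and 52.1 and 67.2 CPM in the knockout. Mapt reached at most 40.6 CPM, Syt1 at most 11.8 CPM and Tubb3 at most 6.46 CPM. Neurod6, Nefl, Slc17a7 and Gad2 were below 1 CPM in each library. Oligodendrocyte lineage markers summed to 1420 and 1288 CPM in the wild type and 1463 and 1406 CPM in the knockout. Of their log2 fold changes 8 of 8 were positive, with 0 called, beside 9896 positive among the 19912 genes tested. Astrocyte markers summed to 488 to 626 CPM and endothelial markers to 2.34 to 3.35 CPM. Microglial markers summed to 6.79 to 7.91 CPM, with Tmem119 at 0 in each library. Mesenchymal and mural markers summed to 9.96 and 7.19 CPM in the wild type and 4.33 and 3.72 CPM in the knockout. Positive and negative changes numbered 5 and 7 for progenitor, 4 and 8 for neuron and 2 and 5 for astrocyte markers. They numbered 2 and 1 for microglial, 0 and 3 for endothelial and 0 and 2 for mesenchymal and mural markers. Groups did not overlap for 5 of 8 oligodendrocyte lineage, 6 of 12 progenitor, 3 of 12 tested neuron and 5 of 7 astrocyte markers. Over all genes tested this share was 27.4%. The part of these cell types in the results below was not tested. Fewer cells of a type and less RNA per cell cannot be told apart in such bulk libraries.

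Levels of different genes were compared as RPKM, CPM per kilobase of the gene's merged exons. Each SD here is over the 4 libraries of both genotypes, so it takes in differences between genotypes as well as between replicates. The order from high to low was Ptbp2 with 34.5 ± 4.63 RPKM (SD, n = 4 libraries), Ptbp1 with 31.7 ± 1.08, Ptbp3 with 24.1 ± 4.86, Nova1 with 16.3 ± 2.04, Rbfox2 with 9.49 ± 0.512, Mbnl1 with 9.22 ± 0.956, Mbnl2 with 7.24 ± 0.447, Nova2 with 5.49 ± 1.79, Rbfox3 with 0.615 ± 0.112 and Srrm4 with 0.0546 ± 0.0213 RPKM. Among all genes tested, the mean RPKM of Ptbp2, Ptbp1 and Ptbp3 stood at percentiles 93.1, 92.5 and 89.9, while that of Rbfox3 stood at 12.9. Between Ptbp3 and Nova1, Nova1 and Rbfox2, Mbnl1 and Mbnl2, Nova2 and Rbfox3, and Rbfox3 and Srrm4 the ranges over the 4 libraries did not overlap. Ptbp1 exceeded Ptbp3 in 4 of 4 libraries although their ranges overlapped slightly. The ranges of Ptbp2 and Ptbp1, of Rbfox2 and Mbnl1, and of Mbnl2 and Nova2 overlapped, with the order holding in 3 of 4 libraries for each pair. With the longest protein-coding transcript as the length, Mbnl1 moved up to 30.5 ± 3.16 RPKM, next to Ptbp3 at 26.3 ± 5.31, while Ptbp2 stayed first and Rbfox3 and Srrm4 last. With coding length, Mbnl1 came next after Ptbp2 at 149 ± 15.4 RPKM, and Ptbp1, at 90.3 ± 3.06, came after Ptbp3 at 108.6 ± 21.9 and Nova1 at 93.9 ± 11.7. The cultures held RNA of the 3 Ptbp genes, Nova1, Rbfox2 and the Mbnl genes at moderate to high levels, and little RNA of Rbfox3 and Srrm4.

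**Figure D1:**
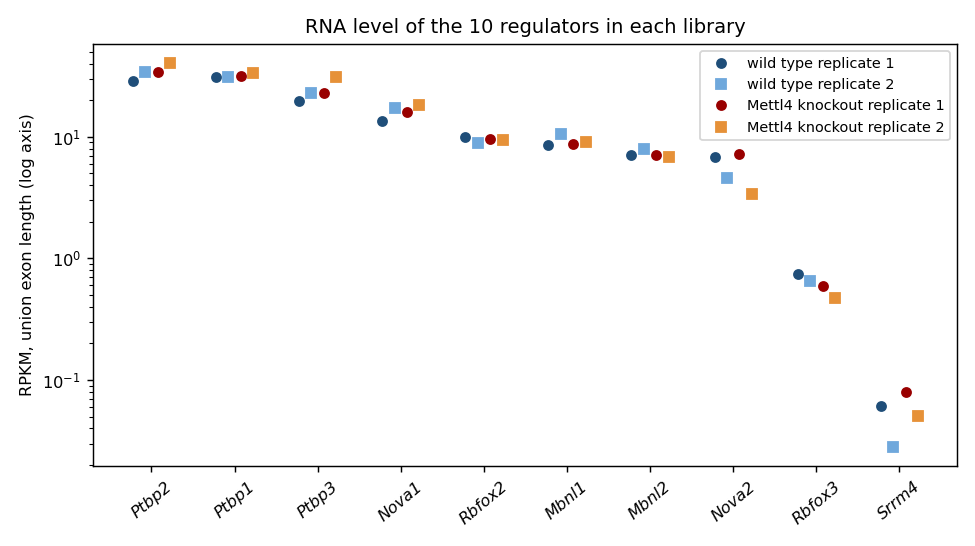
RPKM (CPM per kilobase of merged exons, log axis) of the 10 regulators in each of the 4 libraries, 1 point per library, ordered by mean. Ptbp2, Ptbp1 and Ptbp3 lie at 19.6 RPKM or more in each library, and Srrm4 lies under 0.08 RPKM.

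Ptbp1, the progenitor repressor, was the steadiest of the Ptbp genes. Replicates 1 and 2 of the wild type read 148 and 147 CPM, and those of the knockout 149 and 158 CPM. Both knockout libraries lay above both wild type libraries, though the nearest values, 149 and 148 CPM, were almost equal. The log2 fold change was 0.06 (SE 0.14, 95% interval -0.25 to 0.37, edgeR adjusted p = 1.00).

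Ptbp2, the paralog that takes over in young neurons, read 266 and 316 CPM in the wild type and 313 and 370 CPM in the knockout. Wild type replicate 1 was lowest and knockout replicate 2 highest, and the groups overlapped. The log2 fold change was 0.23 (SE 0.17, interval -0.15 to 0.61, edgeR adjusted p = 1.00). It was 0.11 and 0.37 with wild type replicate 1 or 2 left out, and 0.35 and 0.11 with knockout replicate 1 or 2 left out.

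Ptbp3, the paralog best known from blood cells, read 147 and 171 CPM in the wild type and 172 and 232 CPM in the knockout. Its groups did not overlap, though knockout replicate 1 exceeded wild type replicate 2 by less than the wild type replicates differed. The log2 fold change of 0.35 was the highest among the 9 tested regulators in this fit (SE 0.18, interval -0.04 to 0.74, unadjusted p = 0.0754, edgeR adjusted p = 1.00). Without knockout replicate 2 it was 0.12, and without knockout replicate 1 it was 0.55 (edgeR adjusted p = 0.328).

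The balance of Ptbp1 to Ptbp2 RNA was close to even per length of merged exons. The wild type ratios were 1.08 in replicate 1 and 0.899 in replicate 2, the knockout ratios were 0.919 and 0.826, and Ptbp2 was higher in 3 of 4 libraries. The log2 ratio was -0.02 ± 0.19 in the wild type and -0.20 ± 0.11 in the knockout (SD, n = 2 each), a difference of -0.18 (exact two-sided permutation test, p = 0.667). It was -0.045 and -0.31 with wild type replicate 1 or 2 left out, and -0.25 and -0.099 with knockout replicate 1 or 2 left out. With 2 libraries against 2 this test cannot go below 0.333. Of the RNA of the 3 Ptbp genes per length of merged exons, Ptbp1 made up 39.1% and 35.1% in wild type libraries and 35.4% and 31.8% in knockout libraries. Ptbp2 held 36.3% to 39.0% over the 4 libraries, and Ptbp3 held 24.5% and 25.9%, then 26.0% and 29.6%, in the same order.

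How length was counted moved this balance more than genotype did. The merged exons of Ptbp2 span 9175 bases and include a retained-intron transcript of 4047 bases, while its longest protein-coding transcript has 3777. For Ptbp1 the lengths are 4740 and 3169 bases. With the longest protein-coding transcript as the length, Ptbp2 exceeded Ptbp1 in each library, by 1.75-fold on average (range 1.51 to 1.97), and with coding length by 2.18-fold. With coding length Ptbp1 held the smallest mean share of the 3, 23.0%, against 49.9% for Ptbp2 and 27.2% for Ptbp3. The direction of Ptbp1 against Ptbp3 also depended on length, at a log2 ratio of 0.42 ± 0.23 with merged exons and -0.25 with coding length (SD, n = 4). Counts alone gave 0.43 to 0.56 Ptbp1 reads per Ptbp2 read.

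**Figure D2:**
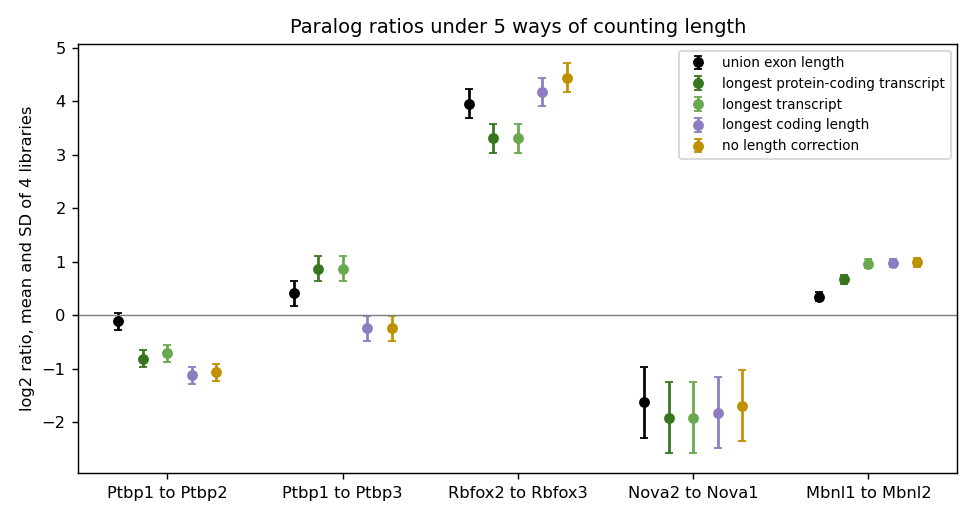
Mean log2 ratio of paralog levels over the 4 libraries under 5 ways of counting gene length, with bars for the SD over libraries. Ptbp1 to Ptbp2 ranges from -0.11 with merged exons to -1.12 with coding length, and Ptbp1 to Ptbp3 changes sign.

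Rbfox2, the family member of progenitors and many other tissues, far exceeded the neuronal Rbfox3. Rbfox2 read 81.8 and 71.8 CPM in the wild type and 78.3 and 77.2 CPM in the knockout. The knockout values lay between the wild type values, with a log2 fold change of 0.02 (SE 0.14, interval -0.30 to 0.34, edgeR adjusted p = 1.00) that was -0.06 without wild type replicate 2. Rbfox3 read 4.30 and 3.78 CPM in the wild type and 3.48 and 2.74 CPM in the knockout, from 50 to 66 counts per library. Both knockout values were below both wild type values, with a log2 fold change of -0.37 (SE 0.30, interval -1.04 to 0.29, edgeR adjusted p = 1.00). It was -0.21 without knockout replicate 2 and -0.56 without knockout replicate 1.

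Per length, Rbfox2 exceeded Rbfox3 by 13.5-fold in each wild type library, and by 16.0-fold and 20.0-fold in knockout replicates 1 and 2. The log2 ratio differed by 0.41 between the genotypes, and the groups did not overlap (exact two-sided permutation test, p = 0.333, the smallest this design allows, and 0.833 after Benjamini-Hochberg adjustment over the 5 paralog pairs compared). Without knockout replicate 2 the difference was 0.24. Rbfox1, the neuronal member outside the 10, read 2.11 and 2.07 CPM in the wild type and 2.37 and 0.602 CPM in the knockout, so knockout replicate 2 stood apart from the other libraries.

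Nova1 and Nova2 bind RNA in neurons and control exons of synaptic genes. Nova1 read 119 and 151 CPM in the wild type and 141 and 161 CPM in the knockout, with overlapping groups and a log2 fold change of 0.16 (SE 0.16, interval -0.20 to 0.52, edgeR adjusted p = 1.00). Left out in turn, wild type replicates 1 and 2 gave 0.00 and 0.35, and knockout replicates 1 and 2 gave 0.26 and 0.06.

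Nova2 read 57.0 and 38.4 CPM in the wild type and 59.9 and 28.6 CPM in the knockout. The libraries numbered 1 were high and those numbered 2 low in both genotypes. The log2 fold change was -0.10 with a wide interval (SE 0.34, interval -0.89 to 0.68, edgeR adjusted p = 1.00), and it was 0.21 without wild type replicate 1. Without knockout replicate 2 the value was 0.33, and it was -0.74 when knockout replicate 1 was left out (edgeR adjusted p = 0.318). Per length, Nova1 exceeded Nova2 in 4 of 4 libraries, by 2.00-fold to 5.39-fold. The log2 ratio of Nova2 to Nova1 was -1.45 ± 0.64 in the wild type and -1.80 ± 0.89 in the knockout (SD, n = 2 each), a difference smaller than the spread between replicates (exact permutation p = 0.667).

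Srrm4, which drives the inclusion of neuronal microexons, was close to the limit of detection. Wild type libraries held 7 and 4 counts and knockout libraries 13 and 8, with exact Poisson 95% intervals of 2.81 to 14.4, 1.09 to 10.2, 6.92 to 22.2 and 3.45 to 15.8 counts that cover counting error only. These intervals overlapped among the 4 libraries. In CPM its levels were 0.528, 0.244, 0.686 and 0.438, and it was the 1 regulator of 10 that did not pass the low-count filter. Its paralog Srrm3 had 5 and 8 counts in wild type libraries, against 10 and 6 in knockout libraries.

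Mbnl1 and Mbnl2, which favour splicing patterns of differentiated tissue, were both well expressed. Mbnl1 read 160 and 199 CPM in the wild type and 162 and 169 CPM in the knockout, with wild type replicate 2 above the other libraries. Its log2 fold change was -0.11 (SE 0.16, interval -0.46 to 0.23, edgeR adjusted p = 1.00), and 0.06 without that library. Mbnl2 read 85.3 and 94.5 CPM in the wild type and 85.3 and 82.1 CPM in the knockout. The knockout libraries lay below the wild type libraries, though wild type replicate 1 and knockout replicate 1 were almost equal (log2 fold change -0.10, SE 0.14, interval -0.41 to 0.21, edgeR adjusted p = 1.00).

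The ratio of Mbnl1 to Mbnl2 was the steadiest of the 5 pairs. Per length of merged exons it was 1.20 and 1.35 for wild type libraries, against 1.22 and 1.32 for knockout libraries. The log2 ratio differed by 0.00 between the genotypes (0.35 ± 0.12 and 0.34 ± 0.08, SD, n = 2 each; exact permutation p = 1.0). Mbnl3, the X-linked member of the family, was scarce, with 8 and 5 counts in wild type libraries against 16 and 34 in knockout libraries (log2 fold change 1.59, SE 0.62, unadjusted p = 0.0285, edgeR adjusted p = 1.00).

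**Figure D3:**
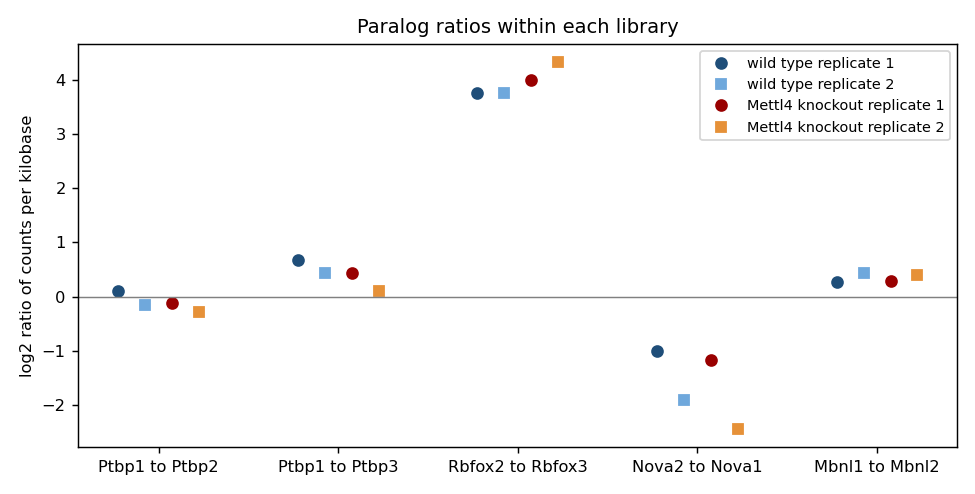
Log2 ratio of paralog levels per kilobase of merged exons within each library, 1 point per library, for the 5 pairs compared. The Rbfox2 to Rbfox3 ratio is between 3.75 and 4.32, and the Nova2 to Nova1 ratio separates the libraries by replicate number rather than by genotype.

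Across the set, 0 of the 9 tested regulators were called for knockout against wild type by edgeR, beside 0.00502% of all genes, and 0 had an unadjusted p under 0.05, beside 2.77% of all genes. DESeq2 and limma-voom also called 0 of 9, with 0 and 0 at an unadjusted p under 0.05. The log2 fold changes were positive for 5 and negative for 4, with a median of 0.02 against -0.00 over all genes. The groups did not overlap for 4 of 9 (Ptbp1 and Ptbp3 higher, Rbfox3 and Mbnl2 lower in the knockout), where 27.4% of all genes showed this. In this fit the 95% intervals lay within a 2-fold difference for 8 of the 9, and for Rbfox3 they did not. These intervals rest on 2 libraries per genotype. For Nova2 the knockout replicates alone differed by 2.10-fold, and its log2 fold change ran from -0.74 to 0.33 with 1 library left out.

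**Figure D4:**
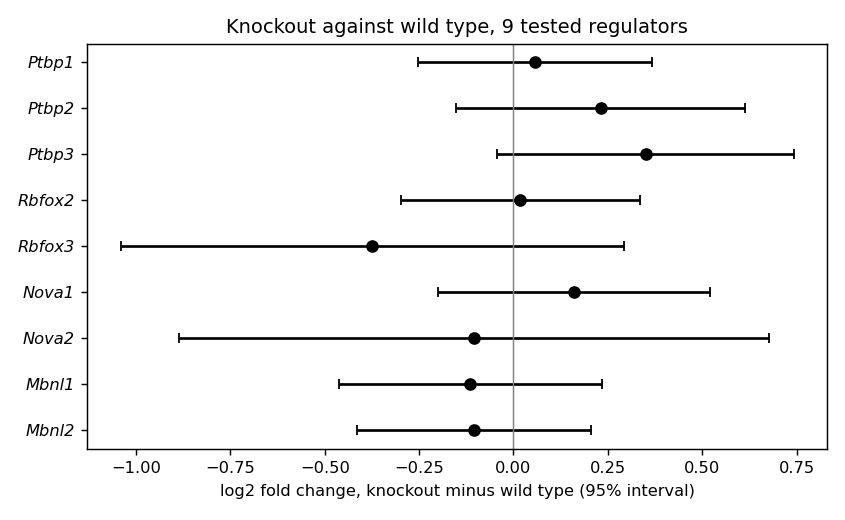
Log2 fold change of the 9 tested regulators, knockout minus wild type, with 95% intervals from the edgeR fit. Each interval includes 0, and the widest are those of Nova2 and Rbfox3.

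Several regulators differed in the same direction between replicates 1 and 2 of both genotypes. Ptbp2, Ptbp3, Nova1 and Mbnl1 were higher in replicate 2 than in replicate 1 of both genotypes. These 4 have the lowest GC content of the 10, from 34.2% to 39.7% over the longest annotated transcript. Rbfox2, Rbfox3, Nova2 and Srrm4 were higher in replicate 1 of both genotypes, and their GC content was 51.5% to 58.6%. Among them, Srrm4 held only 4 to 13 counts per library, and Rbfox2 differed by only 1.01-fold in the knockout. Ptbp1, at 53.7% GC, did not follow, with knockout replicate 2 at 1.06-fold of knockout replicate 1. Mbnl2, at 49.3% GC, also differed in direction between the genotypes. Nova2 stood out, with replicate 1 above replicate 2 by 1.49-fold in the wild type and 2.10-fold in the knockout.

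The same split was seen over all genes. Of the tested genes, 30.5% were higher in replicate 2 of both genotypes and 33.8% in replicate 1 of both. Among tested genes with GC under 45% these shares were 44.4% and 19.4%, and at GC of 52% and over they were 17.3% and 50.1%. With each library's GC trend removed, a setting chosen after seeing the data, 0 regulators were called. The log2 fold changes were then smaller in size for Ptbp2 (0.15), Ptbp3 (0.30), Nova2 (-0.07), Rbfox3 (-0.32), Nova1 (0.12) and Mbnl2 (-0.08). They were larger in size than without this step for Ptbp1 (0.10), Rbfox2 (0.05) and Mbnl1 (-0.15). Whether GC content accounts for the differences between replicates was not tested.

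**Figure D5:**
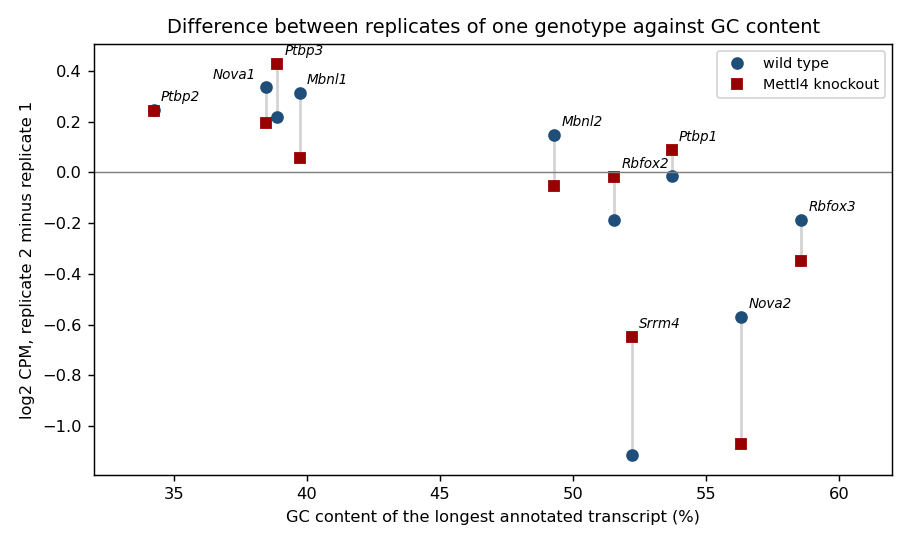
Difference in log2 CPM between replicate 2 and replicate 1 of the same genotype against the GC content of the longest transcript, for the 10 regulators, with a line joining the genotypes of each gene. The 4 genes under 40% GC lie above 0 in both genotypes, and Nova2, Rbfox3, Srrm4 and Rbfox2 lie below 0. Ptbp1 and Mbnl2 lie above 0 in 1 genotype and below 0 in the other.

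Other splicing regulators of neural and epithelial tissues gave a like picture. Of 28 listed genes 24 were tested, with 13 log2 fold changes above 0, 11 below and a median of 0.04, and 0 were called by edgeR (0 by DESeq2 and 0 by limma-voom). Mbnl3, given above, was the 1 member at an unadjusted p under 0.05. Khdrbs3, a STAR family regulator of neurexin exons, read 47.8 and 50.5 CPM in the wild type and 58.8 and 64.7 CPM in the knockout (log2 fold change 0.33, SE 0.15, edgeR adjusted p = 1.00). Msi2, an RNA-binding protein of neural stem cells, read 327 and 332 CPM and 360 and 410 CPM. Esrp2, an epithelial splicing factor, read 2.79 and 2.87 CPM in the wild type and 1.79 and 2.30 CPM in the knockout.

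REST is the repressor that silences neuronal genes, Srrm4 among them, outside neurons, and Srrm4 in turn is known to splice Rest RNA to a less active form. Rest read 8.12 and 6.92 RPKM in the wild type and 7.68 and 7.81 RPKM in the knockout, with the knockout values between the wild type values (log2 fold change 0.04, SE 0.15, edgeR adjusted p = 1.00). Among Rest and its partners, 11 of 11 were tested and 0 called by edgeR, 7 positive and 4 negative, with a median of 0.08. Kdm1a, the demethylase of this complex, read 103 and 92.5 CPM in the wild type and 116 and 114 CPM in the knockout. Hdac1, Sin3a and Hdac2 had log2 fold changes of 0.29, 0.13 and 0.13.

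Of 12 neuronal genes known as REST targets, 5 were below the filter and 7 were tested, 4 positive and 3 negative, with 0 called by edgeR. Snap25, a synaptic vesicle fusion protein, read 6.11 and 6.83 CPM in the wild type and 5.28 and 3.34 CPM in the knockout (log2 fold change -0.59, SE 0.30, edgeR adjusted p = 1.00). Chga, Stmn3 and Syn1 had log2 fold changes of 0.71, 0.13 and 0.35, with Chga from 6 to 23 counts per library.

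Genes with exons that answer to PTB proteins were the fourth list. Of 12 genes 11 were tested, with 3 log2 fold changes above 0, 8 below, a median of -0.05 and 0 called by edgeR. Flna, an actin crosslinker, read 265 and 186 CPM in the wild type and 209 and 177 CPM in the knockout. Gabbr1, a GABA receptor subunit, read 49.9 and 44.5 CPM and 43.7 and 39.8 CPM. Pkm, the pyruvate kinase gene whose M1 and M2 forms are set by PTB proteins, read 771 and 688 CPM and 750 and 908 CPM. Cltb, a clathrin light chain, had a log2 fold change of -0.13. Over these 4 lists 0 genes passed the edgeR threshold, and the groups did not overlap for 9 of 24, 2 of 11, 2 of 7 and 1 of 11 tested members in the order described, beside 27.4% of all genes.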

How the data were processed

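RNA sequencing of 4 libraries was deposited as whole-number read counts per Ensembl gene, not normalised, in 1 file per library. The tools named were STAR 2.7.10 and featureCounts with the build GRCm39, per the submitters' processing notes. Strand and multiple mapping settings are not stated there. Symbols came from a table that matched 52081 of 55414 identifiers. Lengths, GC content and exon sequences came from GENCODE M21 (GRCm38), an earlier build. Genes were filtered with filterByExpr (minimum count 10) and scaled by TMM, and the genotypes were compared by the robust quasi-likelihood test of edgeR 4.0.16 under R 4.3.3, with Benjamini-Hochberg adjustment over all tested genes and a threshold of 0.05. Intervals cover 95%, and each standard error is the absolute log2 fold change divided by the square root of its F value. Paralog ratios used counts plus 0.5 per length within each library, with exact two-sided permutation tests over libraries (scipy 1.17.1). The fit was also run on simulated counts, with the same spread set for every gene and neither a GC trend nor a shared replicate deviation. That run does not cover those features of the real libraries, and its outcome is not given here.

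The members and gene lists were chosen with earlier results of these data known. Named genes are Mettl4, the 10 regulators, up to 4 members of each other list with the smallest p, and Rest, Rbfox1, Mbnl3 and Srrm3. The cell type markers named in the check of the label fall outside this rule and were chosen after their values were seen. Alternatives were other scalings and filters, DESeq2 1.42.0, limma-voom (limma 3.58.1), robust=FALSE, the replicate number as a block, leaving out each library, other lengths and added counts, and, chosen after seeing the data, GC correction (a spline with 5 degrees of freedom) and the longest protein-coding transcript as length.

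Replicates were not the same library: chi-square over its degrees of freedom was 18.7 for the wild type pair and 29.5 for the knockout pair.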

Additional observations from a re-analysis of the deposited data

How the results depend on the processing

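The number of regulators called was 0 in each of 14 alternatives, and 122 of 126 values of their log2 fold changes kept their direction. The 4 that did not came from leaving out 1 library, with ranges over these fits of -0.061 to 0.116 for Rbfox2, -0.74 to 0.33 for Nova2 and -0.262 to 0.063 for Mbnl1. In such fits the lone library of a genotype is assumed to vary like the other genotype. All alternatives drew on the same libraries, so their values are not independent. At most 73 genes were called over all genes in any alternative, so 0 calls among so few regulators says little. The lowest adjusted p among these 126 values was 0.318, for Nova2 without knockout replicate 1. Over all genes 1 was called, against 41 without a low-count filter, 6 by DESeq2, 1 to 47 without 1 library, 9 with the replicate number as a block, and 73 with GC correction and the block. Libraries of the same number deviated together (r = 0.23 across 19912 genes, which are not independent), but no label pairs them. With the block, 0 regulators were called, and Ptbp3 had an unadjusted p of 0.00388 (edgeR adjusted p = 0.394) and Ptbp2 one of 0.034 (0.588). The differences of paralog ratios were equal with and without the block, at -0.18 for Ptbp1 to Ptbp2, by construction. Without 1 library in turn they ranged from -0.45 to -0.11 for Ptbp1 to Ptbp3, from -0.98 to 0.29 for Nova2 to Nova1 and from -0.0865 to 0.0784 for Mbnl1 to Mbnl2.

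Ratio levels moved with length, because the lengths themselves differ. With the longest transcript, coding length, no length and the longest protein-coding transcript, the mean log2 ratios were -0.71, -1.12, -1.06 and -0.81 for Ptbp1 to Ptbp2, 0.87, -0.25, -0.24 and 0.87 for Ptbp1 to Ptbp3, and 0.96, 0.98, 0.99 and 0.67 for Mbnl1 to Mbnl2. For Rbfox2 to Rbfox3 they were 3.31, 4.44 and 3.31 with the longest transcript, no length and the longest protein-coding transcript. Nova2 to Nova1 moved by less than its SD. Depth limits Srrm4, Rbfox1, Mbnl3 and Rbfox3, and the spread between libraries limits Nova2.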
